A study of Mus musculus with 12 samples.

Results

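The receptors for the Fc part of IgG were followed in mouse bone marrow-derived macrophages (BMDMs) across genotype and stimulus. The 5 genes were *Fcgr1*, *Fcgr2b*, *Fcgr3*, *Fcgr4* and *Fcer1g*, chosen by name as the Fcγ receptors of the mouse and the signalling chain that the activating receptors share. They are 5 of 32301 genes or transcripts on the array, and 7 of its 41174 probes measure them, of which 3 belong to *Fcgr2b*. RNA of BMDMs was measured on 12 one-colour arrays in 6 groups of 2 cultures. BMDMs are cells grown from bone marrow with the growth factor M-CSF, here for 7 days. Cells were left untreated (Con), stimulated with LPS and IFNγ (M1) or stimulated with IL-4 (M2), each for 6 h. WT cells came from C57BL/6 mice. Keap1 CKO cells came from Keap1 flox/flox::LysM-Cre mice on the same strain, in which Cre driven by the *LysM* promoter deletes *Keap1* in myeloid cells and the transcription factor Nrf2 is thereby active. All mice were 8 weeks old. Each culture held 1 WT and 1 Keap1 CKO mouse. Both mice of culture 1 were males and both of culture 2 were females, so sex and culture cannot be told apart. The 4 arrays of a stimulus shared a slide of their own. A stimulus therefore cannot be told apart from its slide, whereas the genotypes were compared within a slide.

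Macrophages bind IgG-coated particles and immune complexes through these receptors. *Fcgr1* encodes the high-affinity receptor FcγRI, and *Fcgr3* and *Fcgr4* encode the lower-affinity activating receptors FcγRIII and FcγRIV. *Fcer1g* encodes the common γ chain, whose ITAM motif passes the signal of these activating receptors to Src-family kinases and Syk, and without which they do not reach the cell surface well. *Fcgr2b* encodes the inhibitory receptor FcγRIIB, whose ITIM motif recruits the phosphatase SHIP1. IFNγ is known to raise activating receptors in macrophages, and the relative amount of activating and inhibitory receptors sets how strongly a macrophage reacts to immune complexes.

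The 250 bases upstream of each RefSeq start (GRCm38.p6) are shown for the 4 genes whose windows held letters of a searched motif, because the stimuli act through factors with known binding letters. Motifs were searched on both strands and are in capitals. The interferon-stimulated response element (ISRE) was searched as GAAA, any 2 bases and GAAA, and the STAT6 element as TTC, any 4 bases and GAA. GAGGAA is the core bound by the myeloid factor PU.1, which reads TTCCTC on the other strand. TGAGNNNGC and TGACNNNGC are forms of the antioxidant response element (ARE) core bound by Nrf2. *Fcgr1* lies on chromosome 3 (window chr3:96293970-96294219, minus strand). The others lie close together on chromosome 1, *Fcgr4* on the plus strand (chr1:171018676-171018925), and *Fcgr3* (chr1:171059395-171059644), *Fcer1g* (chr1:171234350-171234599) and *Fcgr2b* (chr1:170976072-170976321) on the minus strand.
Fcgr1: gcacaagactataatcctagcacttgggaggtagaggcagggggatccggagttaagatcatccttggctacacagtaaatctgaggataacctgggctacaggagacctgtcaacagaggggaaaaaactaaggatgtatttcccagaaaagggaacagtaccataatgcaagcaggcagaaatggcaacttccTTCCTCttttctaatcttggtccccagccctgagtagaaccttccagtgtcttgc
Fcgr4: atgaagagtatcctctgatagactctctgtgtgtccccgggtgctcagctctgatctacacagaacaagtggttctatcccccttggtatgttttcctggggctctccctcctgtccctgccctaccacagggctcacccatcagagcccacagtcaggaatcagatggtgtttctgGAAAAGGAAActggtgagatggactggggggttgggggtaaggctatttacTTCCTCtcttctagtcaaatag
Fcgr3: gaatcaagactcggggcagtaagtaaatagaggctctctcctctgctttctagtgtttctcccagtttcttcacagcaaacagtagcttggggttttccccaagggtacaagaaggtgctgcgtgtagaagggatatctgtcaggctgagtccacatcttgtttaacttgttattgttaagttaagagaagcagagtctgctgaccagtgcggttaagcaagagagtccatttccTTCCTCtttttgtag
Fcer1g: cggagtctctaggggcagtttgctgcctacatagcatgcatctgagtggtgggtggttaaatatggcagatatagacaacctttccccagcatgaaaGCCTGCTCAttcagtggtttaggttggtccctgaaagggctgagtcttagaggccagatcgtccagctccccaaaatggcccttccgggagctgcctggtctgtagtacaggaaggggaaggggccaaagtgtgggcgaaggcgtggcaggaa

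The *Fcgr1* window held a PU.1 core, with the first base at −55 from the start. The *Fcgr4* window held the ISRE letters GAAAAGGAAA at −73 and a PU.1 core at −22. The *Fcgr3* window held a PU.1 core at −15 alone, or at −6 from the other annotated start. The *Fcer1g* window held the ARE core letters at −153, on the other strand as GCCTGCTCA. In the *Fcgr2b* window none of the searched letters was found. No match overlapped another. Among 27025 promoter windows of the same length, 3.04% held the ISRE letters, 5.86% the STAT6 letters, 23.1% the PU.1 core, 14.2% the TGAG form and 10.1% the TGAC form of the ARE core. A match describes letters and does not show binding.

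Levels are given as the log2 intensity less the 75th percentile of the array, so that 1 unit is a doubling. All 7 probes were well above background on all 12 arrays, and no spot was saturated. The 75th percentile of the signal was between 548 and 906 on the 4 M1 arrays and between 966 and 1166 on the other 8 arrays. The labels were checked on genes known for each condition. *Keap1* was between 2.85 and 4.80 in WT and between 0.94 and 3.04 in Keap1 CKO, and it was lower in Keap1 CKO in each stimulus (log2 difference −1.46, −1.71 and −1.81 in Con, M1 and M2). *Nqo1*, a target of Nrf2, was higher by 3.23, 3.50 and 3.52. *Nos2*, a marker of M1 cells, was above background in the M1 groups only, and *Arg1*, a marker of M2 cells, rose by 10.4 in WT M2. Of the macrophage markers, 6 of 6 with a probe were above background in every group. *Ms4a1* and *Pax5* of B cells, *Ncr1*, *Gzma*, *Eomes* and *Prf1* of NK cells and *Ms4a2* of mast cells were not above background on both arrays of any group, and neither was *Elane* of neutrophils. In each group 6 to 8 of 9 neutrophil markers and 2 to 5 of 6 mast cell markers were above background on both arrays. So were 2 to 3 of 5 B cell markers and 1 of 5 NK cell markers.

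All 5 genes rose in WT cells on M1 stimulation, by 1.99-fold to 23.5-fold. This was 5 of 5 where 63.2% of 22351 genes passed limma's test (Benjamini-Hochberg adjusted p below 0.05). The median difference of the 5 was 1.54, against 0.13 for all genes. *Fcgr4* changed most. Its log2 level was 1.75 and 1.99 in cultures 1 and 2 of WT Con, and 6.42 and 6.44 in WT M1. It was low in both Con arrays and high in both M1 arrays, and the difference was 4.56 (SE 0.21, limma adjusted p = 8.41e-06). *Fcgr2b*, the inhibitory receptor, rose from 2.58 and 2.69 to 5.23 and 5.26, a difference of 2.61 (SE 0.15, limma adjusted p = 1.60e-05) or 6.09-fold. Its other probes gave differences of 2.65 and 2.70.

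*Fcgr1* had levels of 5.85 and 5.76 in WT Con and of 6.99 and 7.70 in WT M1. The groups did not overlap, but the cultures differed by more in M1 (SD 0.50) than in Con (SD 0.06). The difference was 1.54 (SE 0.27, limma adjusted p = 0.00213), 1.15 in culture 1 and 1.94 in culture 2. *Fcer1g*, the common γ chain, went from 6.20 and 6.16 to 7.16 and 7.42, a difference of 1.11 (SE 0.11, limma adjusted p = 0.000128). *Fcgr3* had the smallest rise, from 3.68 and 3.78 to 4.69 and 4.77, a difference of 0.99 (SE 0.11, limma adjusted p = 0.0003).

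**Figure D1:**
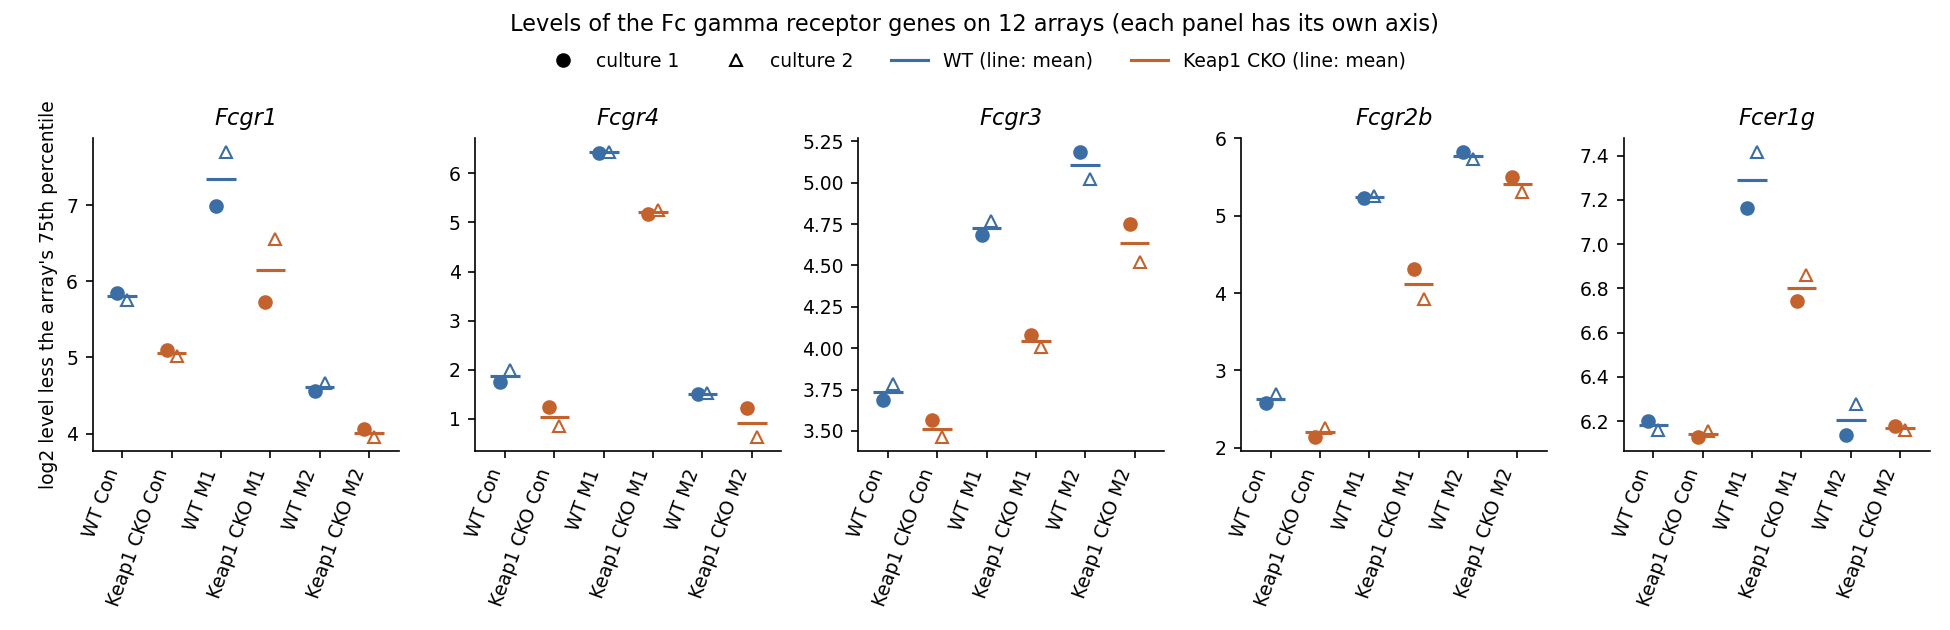
Log2 level less the array's 75th percentile (vertical axis, a separate range for each gene) of the 5 genes on 12 arrays. Filled circles are culture 1, open triangles culture 2, lines the mean of 2; blue is WT and orange Keap1 CKO. *Fcgr4* stands at 5.17 to 6.44 in M1 and at 0.63 to 1.99 elsewhere, and *Fcgr2b* and *Fcgr3* are highest in WT M2.

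In Keap1 CKO cells the 5 genes also rose on M1 stimulation, where 50.2% of genes passed. *Fcgr4* went from 1.25 and 0.84 to 5.17 and 5.26, a difference of 4.17 (SE 0.21). *Fcgr2b* went from 2.14 and 2.26 to 4.31 and 3.92, a difference of 1.92 (SE 0.15). *Fcgr1* went from 5.09 and 5.02 to 5.73 and 6.56, a difference of 1.09 (SE 0.27, limma adjusted p = 0.0134), which lost its call without Keap1 CKO Con of culture 2 (0.91, adjusted p = 0.0926) or Keap1 CKO M1 of culture 2 (0.73, adjusted p = 0.0871). The differences of *Fcer1g* and *Fcgr3* were 0.66 and 0.53 (SE 0.11 each).

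The sizes of these rises depended on how the arrays were scaled, and the M1 arrays had the lower 75th percentiles. With quantile normalization the median of all genes in M1 against Con moved from 0.13 to −0.08 in WT. Relative to that median, the rise in WT was 4.43 for *Fcgr4* and 2.48 for *Fcgr2b* with the 75th percentile, and 4.01 and 2.10 with quantile normalization. For *Fcgr1*, *Fcer1g* and *Fcgr3* it was 1.42, 0.98 and 0.87 with the 75th percentile and 0.75, 0.33 and 0.46 with quantile normalization. *Fcgr1* then missed the threshold in WT (0.67, adjusted p = 0.0509). In Keap1 CKO only *Fcgr4* and *Fcgr2b* kept their call, at 3.86 and 1.62, and *Fcgr1*, *Fcgr3* and *Fcer1g* did not (0.54, 0.14 and 0.07, adjusted p = 0.112, 0.354 and 0.563). The direction was the same under each scaling. The unscaled signal of *Fcer1g* was 84177 and 73073 in WT Con and 108653 and 93572 in WT M1.

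M2 stimulation moved the receptors apart from each other. In WT cells *Fcgr2b* and *Fcgr3* rose and *Fcgr1* fell, 3 of 5 genes called where 16.8% of all genes were. *Fcgr2b* had levels of 5.82 and 5.73 in WT M2, against 2.58 and 2.69 in WT Con. The difference was 3.14 (SE 0.15, limma adjusted p = 0.00017) or 8.82-fold. *Fcgr3* reached 5.19 and 5.02, a rise of 1.37 (SE 0.11, limma adjusted p = 0.00106) or 2.59-fold. *Fcgr3* and the inhibitory receptor gene *Fcgr2b* thus both stood above all 4 Con arrays in every M2 array. The share of all genes that did so was not computed.

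*Fcgr1* was at 4.55 and 4.67 in WT M2, below both WT Con arrays, a difference of −1.19 (SE 0.27, limma adjusted p = 0.0273). This call was lost when any one of the 4 arrays was left out: without WT Con of culture 1 or 2 the difference was −0.9997 and −1.38 (adjusted p = 0.165 and 0.0862), and without WT M2 of culture 1 or 2 it was −1.26 and −1.12 (adjusted p = 0.105 and 0.150). *Fcgr4* was at 1.498 and 1.53 in WT M2, a difference of −0.36 (SE 0.21, adjusted p = 0.284). *Fcer1g* was at 6.14 and 6.28, a difference of 0.03 (95% interval −0.22 to 0.28).

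In Keap1 CKO cells the pattern of M2 values was alike, with 2 of 5 genes called where 10.2% of all genes were. *Fcgr2b* rose from 2.14 and 2.26 to 5.50 and 5.31, a difference of 3.21 (SE 0.15, limma adjusted p = 0.000228). *Fcgr3* rose from 3.56 and 3.46 to 4.75 and 4.52, a difference of 1.12 (SE 0.11, limma adjusted p = 0.00309). *Fcgr1* was at 4.06 and 3.95, a difference of −1.05 (SE 0.27) that missed the threshold (adjusted p = 0.0545). It passed with quantile normalization (−1.20, adjusted p = 0.0296), among genes above background on all 12 arrays (adjusted p = 0.0351) and with a trended and robust prior (adjusted p = 0.0299), and over 14 alternatives the adjusted p ran from 0.0296 to 0.338. *Fcgr4* and *Fcer1g* differed from Con by −0.12 and 0.03. The M2 arrays had 75th percentiles like those of Con, and quantile normalization left the WT differences of *Fcgr2b* and *Fcgr3* at 3.21 and 1.36.

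**Figure D2:**
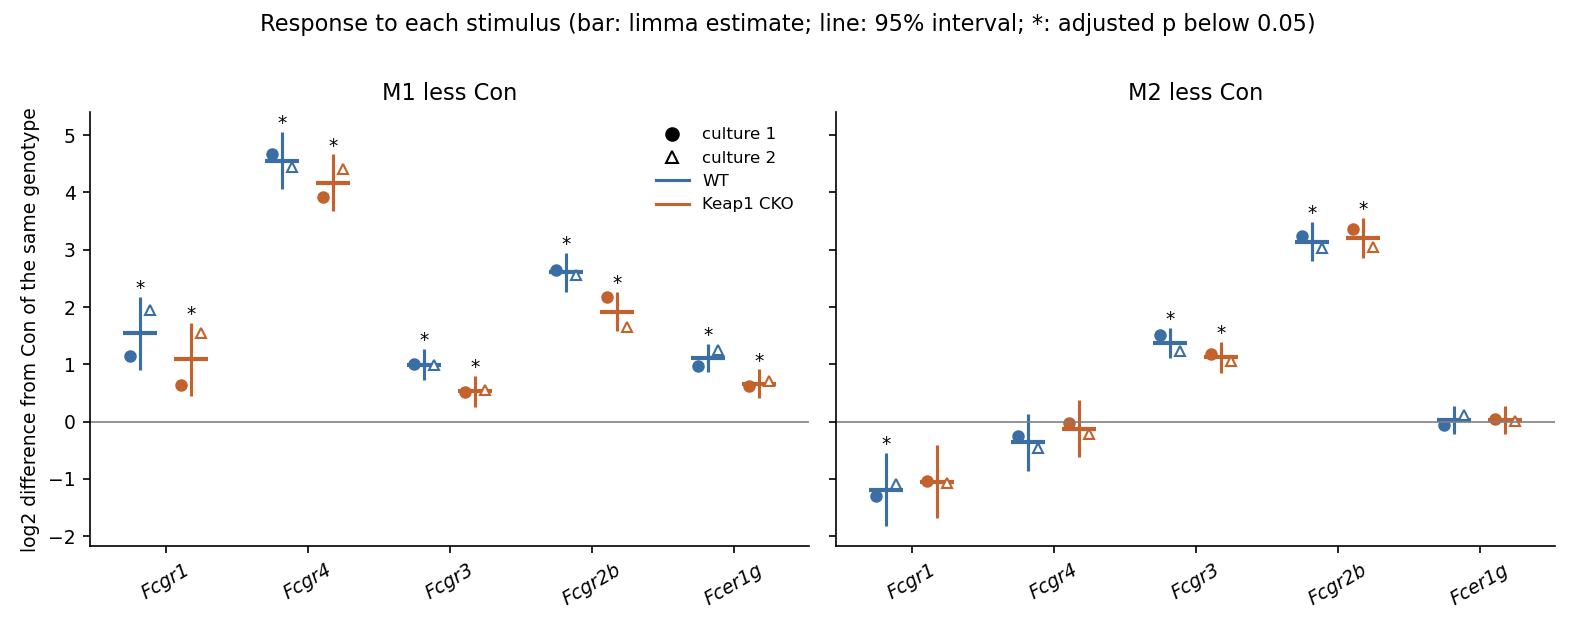
Log2 difference from Con of the same genotype (vertical axis) for M1 and M2, with WT in blue and Keap1 CKO in orange. Circles and triangles are cultures 1 and 2, bars the limma estimate, lines its 95% interval, and asterisks an adjusted p below 0.05. All genes lie above 0 in M1, and in M2 *Fcgr2b* and *Fcgr3* lie above 0 and *Fcgr1* below.

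The change of an activating receptor less that of *Fcgr2b* on the same array is not altered by subtracting a constant from an array, as the 75th percentile scaling does. *Fcgr4* changed more than *Fcgr2b* in WT M1, by 2.02 and 1.88 in cultures 1 and 2, and less in WT M2, by −3.50 in both. In Keap1 CKO it was 1.75 and 2.75 in M1, and −3.39 and −3.27 in M2. *Fcgr1* changed less than *Fcgr2b* under both stimuli, by −1.501 and −0.62 in WT M1 and by −4.54 and −4.13 in WT M2. In Keap1 CKO it was −1.54 and −0.12 in M1, and −4.39 and −4.12 in M2. *Fcgr3* also changed less than *Fcgr2b*, by −1.65 and −1.58 in WT M1 and by −1.74 and −1.80 in WT M2. In Keap1 CKO its values were −1.66 and −1.11 in M1, below which lay those in M2, −2.17 and −1.996. With quantile normalization, an alternative chosen after seeing the data, every mean of the 2 cultures kept its sign, and that of *Fcgr1* in M1 went from −1.06 to −1.34 in WT and from −0.83 to −1.07 in Keap1 CKO. Only *Fcgr4*, and only in M1, was above 0. These values show unequal change and carry no test.

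**Figure D3:**
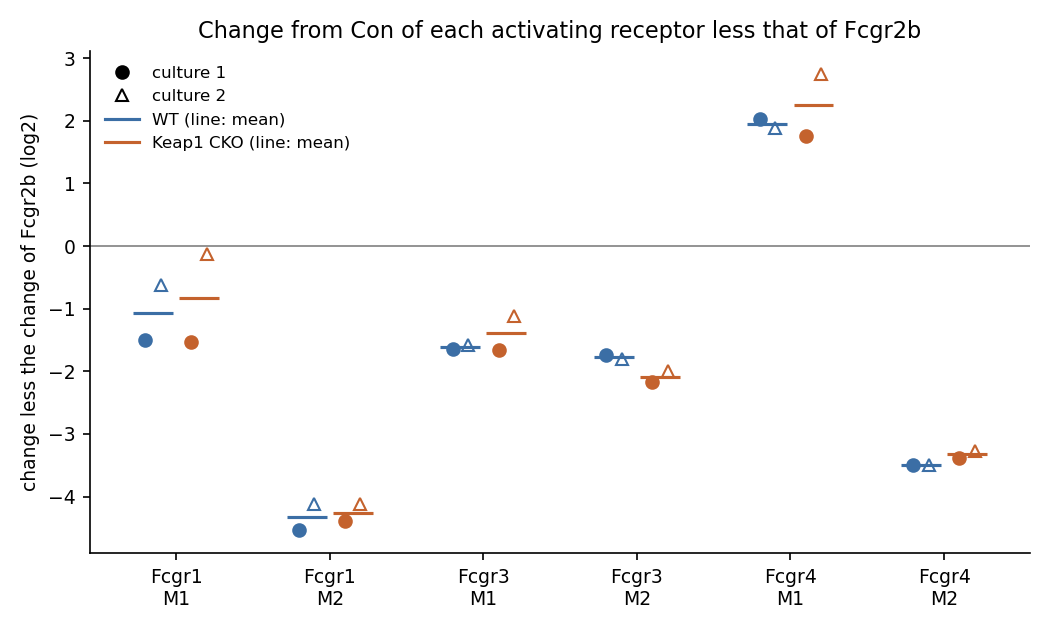
Change from Con of *Fcgr1*, *Fcgr3* and *Fcgr4* less the change of *Fcgr2b* on the same array (vertical axis, log2), by stimulus, with WT in blue and Keap1 CKO in orange. Circles and triangles are cultures 1 and 2, and lines their mean. *Fcgr4* lies at 1.75 to 2.75 in M1 and all other points lie below 0.

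The comparison of Keap1 CKO with WT asked whether the receptors differ in cells with active Nrf2. In M1 all 5 genes were lower in Keap1 CKO, where 16% of all genes passed the test and 1921 of the 3582 called genes were lower. With quantile normalization 1352 of 3382 called genes were lower. The median difference of the 5 genes was −1.13, against −0.09 for all genes. Relative to the median of all genes, the 5 differences lay between −1.13 and −0.40 with the 75th percentile and between −0.96 and −0.28 with quantile normalization. *Fcgr4* was at 6.42 and 6.44 in WT M1 and at 5.17 and 5.26 in Keap1 CKO M1, a difference of −1.22 (SE 0.21, limma adjusted p = 0.0148). *Fcgr1* was at 6.99 and 7.70 in WT and 5.73 and 6.56 in Keap1 CKO. The difference was −1.26 in culture 1 and −1.14 in culture 2, and −1.20 in the fit (SE 0.27, limma adjusted p = 0.0304). *Fcgr2b* was at 5.23 and 5.26 in WT and 4.31 and 3.92 in Keap1 CKO, a difference of −1.13 (SE 0.15, limma adjusted p = 0.00597), and its other probes gave −1.21 and −1.26. The linear level of these 3 genes in Keap1 CKO was 0.430 to 0.458 times that in WT. For each of the 5 genes the Keap1 CKO array was below the WT array in both cultures. The share of all genes with that pattern was not computed.

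*Fcgr3* differed by −0.60 and −0.76 in cultures 1 and 2, and by −0.68 in the fit (SE 0.11, limma adjusted p = 0.0135). *Fcer1g* differed by −0.42 and −0.56, and by −0.49 in the fit (SE 0.11, limma adjusted p = 0.0275). The call of *Fcer1g* was lost with quantile normalization (−0.27, adjusted p = 0.088). Without WT M1 of culture 2, or without Keap1 CKO M1 of culture 1, only *Fcgr2b* kept its call. The other 4 genes then had differences of −0.39 to −1.14 and of −0.47 to −1.10, with adjusted p from 0.0699 to 0.150. *Fcer1g* also lost its call without Keap1 CKO M1 of culture 2 (−0.51, adjusted p = 0.0666). Without the culture as a block, *Fcgr1* and *Fcer1g* missed the threshold (adjusted p = 0.057 and 0.0723).

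In Con and M2 none of the 5 genes passed limma's test between the genotypes, where 2.21% and 1.93% of all genes did. At an unadjusted p below 0.05, 3 of 5 were lower in each, where 14.1% and 14.3% of all genes had such a p in either direction, and an unpaired test called none. In Con *Fcgr4* was at 1.75 and 1.99 in WT and at 1.25 and 0.84 in Keap1 CKO, a difference of −0.83 (95% interval −1.32 to −0.33, adjusted p = 0.121). *Fcgr1* differed by −0.75 (−1.38 to −0.11) and *Fcgr2b* by −0.44 (−0.78 to −0.09). In M2 *Fcgr3* was at 5.19 and 5.02 in WT and at 4.75 and 4.52 in Keap1 CKO, a difference of −0.47 (−0.74 to −0.20, adjusted p = 0.116). *Fcgr1*, *Fcgr4* and *Fcgr2b* differed by −0.60, −0.59 and −0.37. *Fcer1g* differed by −0.04 in both Con and M2, with intervals from −0.29 to 0.21.

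**Figure D4:**
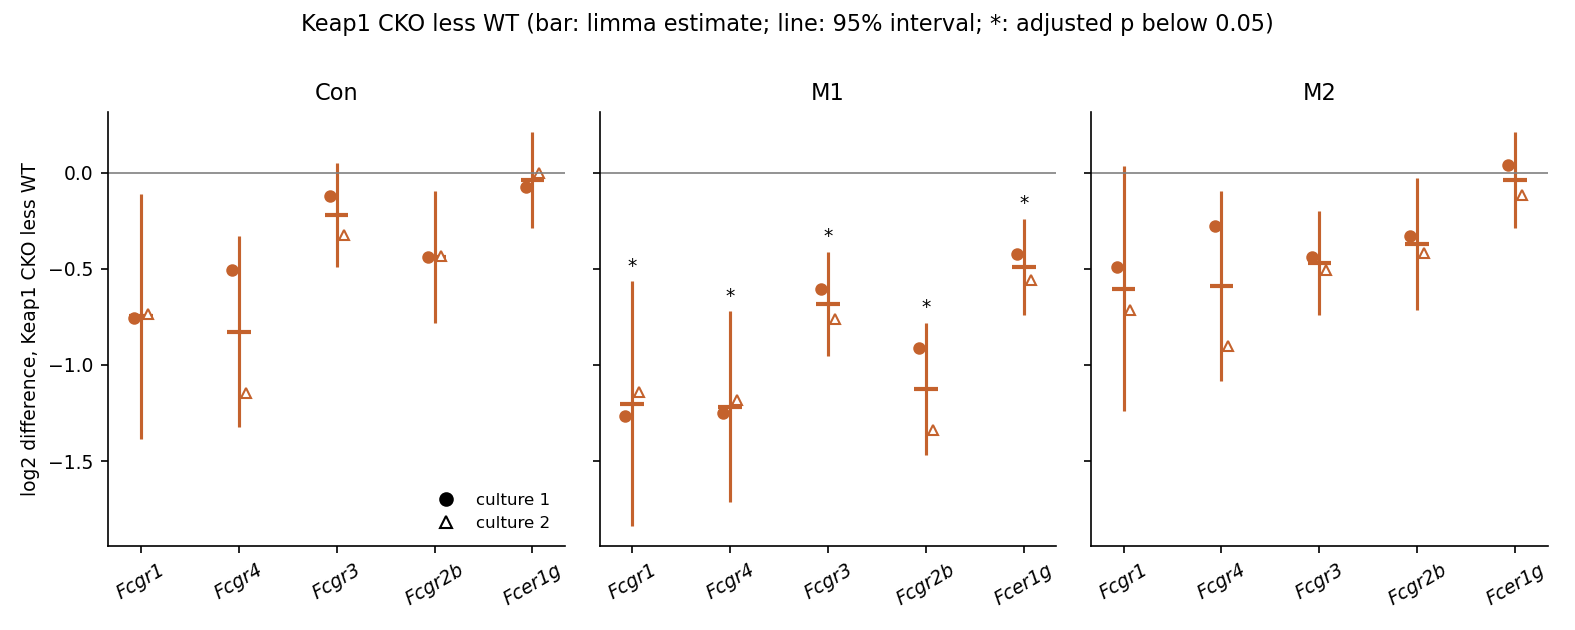
Log2 difference of Keap1 CKO less WT (vertical axis) in Con, M1 and M2. Circles and triangles are cultures 1 and 2, bars the limma estimate, lines its 95% interval, and asterisks an adjusted p below 0.05. *Fcgr1*, *Fcgr4*, *Fcgr3* and *Fcgr2b* lie below 0 in both cultures of each stimulus, and asterisks stand in M1 only. The share of all genes below 0 in this way was not computed.

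A call in M1 and none in Con does not show that the genotypes respond differently, so the difference between their responses was tested. None of the 5 genes passed for the M1 response, where 0.0716% of all genes did, and none for the M2 response, where 0.00895% did. At an unadjusted p below 0.05 there were 3 and 0 of the 5, against 16.4% and 2.01% of all genes. The difference in the M1 response was −0.69 for *Fcgr2b* (95% interval −1.17 to −0.20, adjusted p = 0.204), −0.45 for *Fcer1g* (−0.80 to −0.10) and −0.46 for *Fcgr3* (−0.84 to −0.08). For *Fcgr1* and *Fcgr4* it was −0.46 and −0.39, with intervals that include 0. In the M2 response the estimates were between −0.25 and 0.24. A comparison chosen after these values were seen averaged the genotype difference over Con, M1 and M2. In it 4 of 5 genes were lower where 17.2% of all genes were called, *Fcgr4* (−0.88, adjusted p = 0.00452), *Fcgr1* (−0.85, adjusted p = 0.013), *Fcgr2b* (−0.65, adjusted p = 0.00363) and *Fcgr3* (−0.46, adjusted p = 0.00532). These 4 kept their call without any single array. *Fcer1g* averaged −0.19 (adjusted p = 0.0773).

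Other markers of the cells moved with genotype as well. The summed linear level of the 6 macrophage markers, in units of the 75th percentile, was 343 to 394 in Keap1 CKO and 454 to 500 in WT in Con, 445 to 469 and 542 to 599 in M1, and 412 to 448 and 495 to 540 in M2. In M1 *Mrc1* (−1.28), *Itgam* (−0.65) and *Adgre1* (−0.39) were lower in Keap1 CKO. Of the 6 macrophage markers, 3 were called lower in M1, where 16% of all genes were called. In each of Con and M2 1 of the 6 was called lower, where 2.21% and 1.93% of all genes were called. The summed level of 5 dendritic cell markers was higher in Keap1 CKO, 7.83 to 14.97 against 1.48 to 1.56 in Con, 12.8 to 19.3 against 6.07 to 7.02 in M1, and 17.6 to 26.8 against 5.82 to 8.80 in M2. The sum does not describe each marker. In M1 2 of the 5 had a positive and 3 a negative difference, with a median of −0.31, and the medians in Con and M2 were 0.80 and 0.21. *Itgax* was called higher in Con and M1 (2.99 and 1.37), *Xcr1* was called lower in M1 (−1.05), no marker of the 5 was called in M2, and *Cd209a* was not above background on both arrays of 5 of the 6 groups. Of these 5 markers, 20% were called in Con and 40% in M1. Over all genes 2.21% were called in Con, 16% in M1 and 1.93% in M2. The summed neutrophil markers overlapped between the genotypes in each stimulus and lay between 3.78 and 16.6. The B cell sum was at most 0.98, the NK cell sum at most 0.20 and the mast cell sum at most 0.17. The part of these markers in the receptor differences was not tested, and in bulk RNA fewer cells of a type and less RNA per cell cannot be told apart.

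Ranking the 6 groups separated the genes by the group in which they stood highest. *Fcgr1* ran from WT M1 (7.35) through Keap1 CKO M1 (6.14), WT Con (5.80), Keap1 CKO Con (5.06) and WT M2 (4.61) to Keap1 CKO M2 (4.01), and only the first pair of neighbours differed by limma's test. *Fcgr4* stood at 6.43 in WT M1 and 5.21 in Keap1 CKO M1, which differed, and Keap1 CKO M1 differed from WT Con (1.87). The other 3 groups of *Fcgr4*, between 0.92 and 1.51, were not separated from their neighbours. *Fcer1g* had the same leading pair, 7.29 and 6.80, and its other groups lay between 6.14 and 6.21. The gap of *Fcer1g* between Keap1 CKO M1 and WT M2 passed the test, but not with quantile normalization.

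*Fcgr2b* and *Fcgr3* instead stood highest in WT M2. *Fcgr2b* ran from 5.78 in WT M2 through 5.40 in Keap1 CKO M2 and 5.24 in WT M1 to 4.12 in Keap1 CKO M1 and 2.64 in WT Con. Keap1 CKO M2 did not pass the test against WT M2 or WT M1, its neighbours, whereas WT M2 was above WT M1 by 0.54 (adjusted p = 0.0153). Keap1 CKO M1 and WT Con were each lower than the group above. *Fcgr3* was at 5.11 in WT M2, above WT M1 at 4.73 (adjusted p = 0.0228). WT M1 and Keap1 CKO M2 (4.63) were not separated, whereas Keap1 CKO M1 (4.04) was lower than Keap1 CKO M2 (adjusted p = 0.00449). The extracellular parts of FcγRIIB and FcγRIII are known to be closely alike in sequence, and cross-hybridization between their probes was not tested.

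Over the 12 arrays, the levels of *Fcgr2b* and *Fcgr3* had a Pearson r of 0.968, and *Fcgr3* was among the 3 genes most like *Fcgr2b* of 14460 with a symbol, after *Cish* (0.982) and *Ccl7* (0.973). For *Fcgr3* the most alike genes were *Ccl7* (0.982), *Ier3* (0.977) and *Glrx* (0.971). *Fcgr4* and *Fcer1g* had an r of 0.966 and *Fcgr1* and *Fcgr4* of 0.879, whereas *Fcgr1* and *Fcgr2b* were at −0.107. The genes most like *Fcgr4* were *Tank* (0.996), *Aida* (0.995) and *Surf4* (0.994). For *Fcer1g* they were *Eif4g2* (0.996), *Ktn1* (0.994) and *Sec24b* (0.994), and for *Fcgr1* *Aftph* (0.991), *Kdr* (0.985) and *Trim30b* (0.981). The 12 arrays share stimulus, slide and scaling, so these values are descriptions.

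Below the receptors, genes of activating signalling were called in WT M1 about as often as all genes. Of 30 genes tested, 16 rose, 3 fell and 11 did not pass, so that 63.3% were called against 63.2% of all genes, and their median was 0.65 against 0.13. *Malt1*, a partner of the adaptor CARD9 downstream of ITAM receptors, rose by 4.92, the kinase gene *Src* by 4.70 and the adaptor gene *Lcp2* (SLP-76) by 3.43. *Plcg1*, encoding a phospholipase C, was not above background in WT M1 and was at least 4.03-fold lower there, but its call was lost with the normexp background correction (−0.23, adjusted p = 0.444). *Lat2*, encoding an adaptor related to LAT, fell (−1.17), as did *Was*, the actin regulator (−0.74). In WT M2 5 of the 30 rose and 5 fell, 33.3% where 16.8% of all genes were called, with a median of 0.13 against −0.01. The kinase gene *Fgr* rose by 2.57, *Prkcd* (protein kinase C δ) by 1.94 and *Malt1* by 0.89, and the exchange factor gene *Vav3* (−1.11) and *Pik3cb* (−1.07) were among those that fell.

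In Keap1 CKO M1, 6 of these 30 genes were lower than in WT M1, 2 were higher and 22 did not pass. This was 26.7% called where 16% of all genes were, in a comparison whose split of all called genes turned with the scaling, and the median was −0.19 against −0.09. The 6 lower genes were *Vav3* (−1.15), *Pik3ap1* (−1.15), *Pik3cd* (−0.85), the kinase genes *Lyn* (−0.70) and *Syk* (−0.46), which act directly on ITAM motifs, and the adaptor gene *Gab2* (−0.65). *Lat2* (0.84) and *Lat* (1.59) were higher. With quantile normalization *Vav3*, *Gab2*, *Lat2* and *Lat* kept their call and the others did not, with the same direction. *Vav3* was also lower in Con (−0.82) and M2 (−0.66), the only one of the 30 called there, where 2.21% and 1.93% of all genes were called. Both calls were lost with the normexp correction (limma adjusted p = 0.0906 and 0.166).

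Of 19 inhibitory genes, 6 rose, 6 fell and 7 did not pass in WT M1, 63.2% called as over all genes, with a median of 0.18. *Ptpn6* (the phosphatase SHP-1) rose by 1.89, *Lilrb4a* by 1.47 and *Ptprc* (CD45) by 1.44. *Inpp5d*, encoding SHIP1, the phosphatase that FcγRIIB recruits, fell from a mean level of 4.95 to 2.16 (−2.79, limma adjusted p = 9.95e-06), and *Cd300a* (−3.94) and *Cd300lf* (−2.96), encoding ITIM receptors, fell as well. *Fcgr2b* rose and *Inpp5d* fell in the same cultures. In WT M2 2 genes rose, *Dok2* (2.12) and *Csk* (0.66), and 5 fell, among them *Pirb* (−1.13) and *Inppl1* (SHIP2, −0.97). These were 36.8% of the 19 genes, where 16.8% of all genes were called, with a median of −0.21. *Siglece* was not above background in WT M2 and at least 1.36-fold lower there, with the sign turned by the normexp background correction (0.65). In Keap1 CKO M1, *Inpp5d* was higher than in WT (0.71, adjusted p = 0.0195) and 5 of the 19 genes were lower (31.6% called in all, against 16% of all genes, median −0.14), *Pirb* (−0.91), *Cd300lf* (−0.78), *Csk* (−0.75), *Cbl* (−0.53) and *Siglece*. *Siglece* was not above background in Keap1 CKO M1, and above it on 1 of 2 WT M1 arrays. *Cd300lf* was also lower in Con (−1.07).

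Of 16 ITAM adaptors and receptors that pair with them, 5 rose and 4 fell in WT M1, 56.3% where 63.2% of all genes were called, with a median of 0.08. The C-type lectin receptor genes *Clec4e* (Mincle, which signals through *Fcer1g*) and *Clec5a* rose by 5.39 and 4.02, and *Cd300lb* (−3.21), *Cd300ld* (−3.06) and *Sirpb1a* (−2.77) fell. *Cd247*, encoding the ζ chain of the T cell receptor, was above background on both WT M1 arrays and on 1 of 2 WT Con arrays, with mean levels of 1.74 and −8.18. In WT M2 6 fell, among them *Clec4d* (−2.48), *Clec4n* (Dectin-2, −2.19) and *Clec4e* (−2.09), and *Cd300lb* rose by 1.09. Thus 43.8% were called where 16.8% of all genes were, with a median of −0.10 against −0.01. In Keap1 CKO M1 *Trem1* (−2.49) and *Pilrb1* (−1.61) were lower than in WT and *Sirpb1a* (0.85) and *Oscar* (1.34) higher. These were 25.0% of the 16, where 16% of all genes were called, with a median of 0.08 against −0.09. *Pilrb1* was also lower in Con (−2.58) and M2 (−2.23), and in M2 *Clec4d* was higher (1.08) and *Cd247*, not above background in WT M2, was at least 3.52-fold higher, with the sign turned by the normexp correction (−0.16).

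Of 9 other antibody receptor genes tested, 2 rose and 3 fell in WT M1, 55.6% where 63.2% of all genes were called, with a median of −0.35. *Trim21*, the cytosolic antibody receptor, rose by 2.99 and *B2m*, the light chain of the neonatal Fc receptor and of MHC class I, by 1.89. *Fcgrt*, encoding the heavy chain of the neonatal Fc receptor, fell (−0.95), as did *Fcrl1* (−2.93), and *Fcrla* was not above background in WT M1 and at least 1.06-fold lower, with the sign turned by the normexp correction (0.36). In WT M2 *Fcrl1* fell by 2.40 and *Fcrls* rose by 0.67, 22.2% of the 9 where 16.8% of all genes were called. The median of the 9 was −0.01, against −0.01 for all genes. *Fcgrt* was lower in Keap1 CKO in Con, M1 and M2 (−1.15, −1.10 and −1.16), and *Fcrls* in Con and M1 (−1.33 and −1.29). In M1 *B2m* was lower (−0.41) and *Fcrl1* higher (0.71), so that 44.4% of the 9 were called where 16% of all genes were. The median of the 9 was −0.41, against −0.09 for all genes. The call of *B2m* was lost with quantile normalization (−0.14, adjusted p = 0.376). Of the 22 list genes called between the genotypes in M1, 16 passed with quantile normalization and 7 with the normexp correction, and none changed sign. Of the 5 called in Con, 5 passed with quantile normalization and 2 with the normexp correction. Of the 5 called in M2, 4 and 1 passed, and 1 changed sign with the normexp correction.

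**Figure D5:**
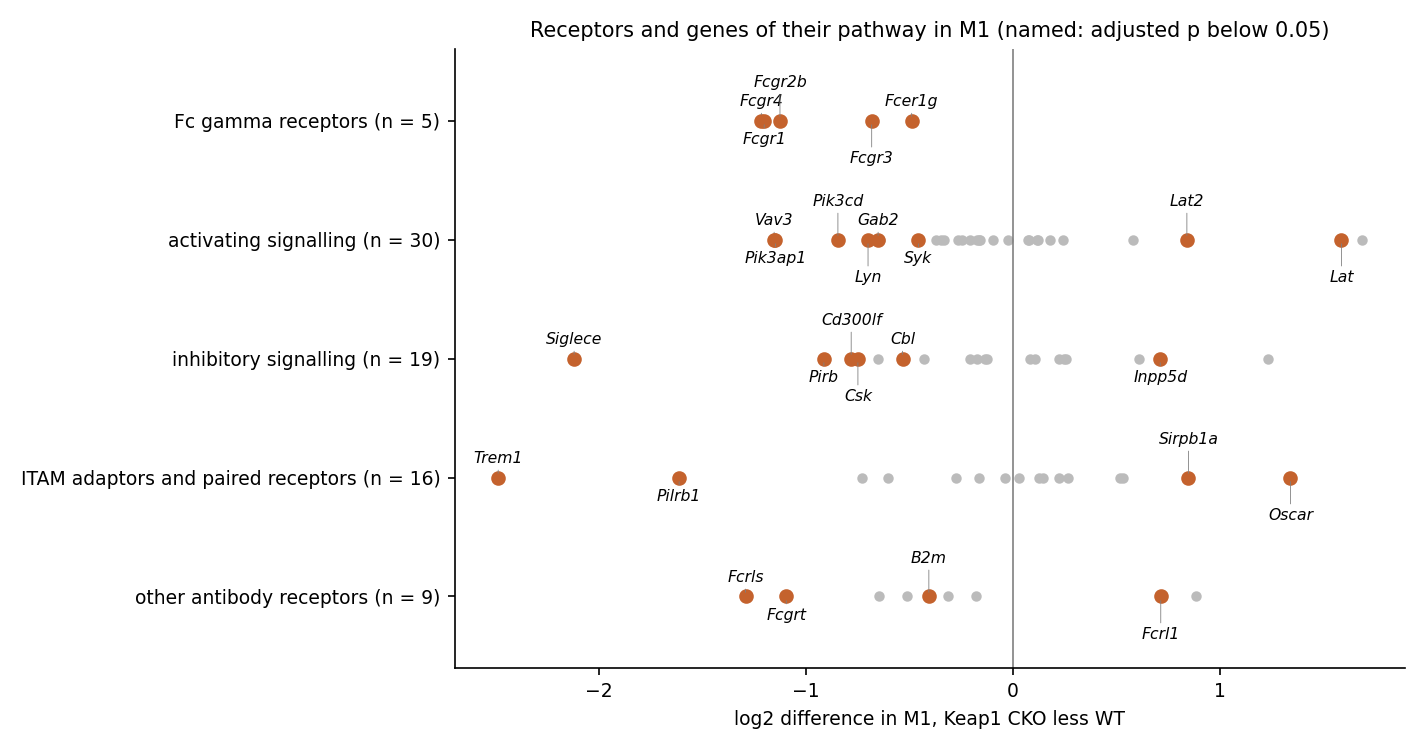
Log2 difference of Keap1 CKO less WT in M1 (horizontal axis) for the 5 receptor genes and the tested genes of 4 lists, 1 row for each. Orange, named points had an adjusted p below 0.05 and grey points did not. The 5 receptor genes lie between −1.22 and −0.49, and each other row holds called genes on both sides of 0.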

How the data were processed

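Total RNA of BMDMs was labelled with Cy3 and hybridized to Agilent arrays designed on mm9. Spot intensity was read by the authors in Agilent Feature Extraction 10.7.3.1. The deposited scanner files give every spot's processed intensity (background subtracted), its uncorrected intensity, its local background and flags. The authors' deposited log2 table equals log2 intensity less the array's 75th percentile, centred on each probe's median.

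Here, outlier spots were dropped, repeated spots were averaged per probe, and the array's 75th percentile was subtracted from each log2 intensity. Of 41174 probes, 26695 were named by accession through RefSeq, and each gene was read from its brightest probe. Genes whose signal exceeded background on both arrays in 1 group or more were tested with limma 3.58.1 in R 4.3.3, in 1 model of the 6 groups with culture as a block, with Benjamini-Hochberg adjustment over 22351 genes. Culture pairs the arrays by the series' description. Deviations from the group means correlated at 0.162 to 0.597 between groups of the same culture, in 15 pairs of groups. A fold against a group not above background is a lower bound, taken from the lowest signal above background on each array. With 2 arrays a group, the smallest two-sided exact p is 0.333, and exact tests were not used. On simulated data for Keap1 CKO against WT in M1 with 22084 genes, the fit recovered 39% of 2-fold and 83% of 4-fold changes. The simulation changed a far smaller share of genes than the 16% called in the data. Its recovery rates therefore do not carry over to that comparison. The number of arrays limits the precision.

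The receptor genes and the gene lists were chosen with earlier results of these data known. The genes named are the receptors, the 3 genes most like each, the list genes called between the genotypes, and at most 3 rises and 3 falls of a list in each WT response, of which 1 gene is not reported here. No probe was found for *Card9*, *Cblb*, *Fcrlb*, *Cd68*, *Ly6g* and *Tpsab1*. Alternatives were other scalings, background corrections, filters, probe rules and models, and leaving out each array.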

Additional observations from a re-analysis of the deposited data

How the results depend on the processing

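No receptor difference that passed the threshold changed sign under any alternative run. Over 24 such differences, 346 recomputed values kept the call and 54 lost it. Of the kept values, 90 belong to the average over Con, M1 and M2, which was chosen after the values were seen. Between the genotypes in M1, 51 values kept the call and 26 lost it. The counts of called receptors moved as follows. The methods' unpaired test, adjusted over all genes, called 3 in WT M1 against Con, 0 in Keap1 CKO M1, 0 in WT M2, 0 in Keap1 CKO M2 and 0 between the genotypes in M1. A fit of the compared groups alone called 3 in Keap1 CKO M1, 0 in Keap1 CKO M2 and 0 between the genotypes in M1, with fewer samples behind its spread. Quantile normalization called 2 in Keap1 CKO M1. Between the genotypes in M1, the normexp background correction (offset 50) called 2, the fit with no replicate block 3, and leaving out single arrays between 1 and 5. The fit without the block changed no other count of called receptors by over 1.5 times. With a trended and robust prior, *Fcgr3* was called between the genotypes in M2, 1 of 5. Leaving out single arrays gave 2 called genes in each of the M2 responses, 5 in WT M1 and 4 to 5 in Keap1 CKO M1. Neighbouring groups past the threshold fell with the normexp correction to 0 for *Fcgr1*, 1 for *Fcgr3* and 1 for *Fcer1g*, and with quantile normalization to 0 for *Fcer1g*. The cause was not tested where no construction is named.

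Values that changed sign were small and had not passed the threshold. For *Fcer1g* in WT M2 against Con they were −0.047 (quantile) and −0.096 (normexp), and −0.046 to 0.0999 without single arrays. In Keap1 CKO M2 against Con they were −0.094 (quantile) and −0.032 to 0.086 without single arrays for *Fcer1g*, and −0.42 to 0.17 without single arrays for *Fcgr4*. Between the genotypes *Fcer1g* ranged from −0.113 to 0.034 in Con and from −0.098 to 0.020 in M2 without single arrays, and was 0.12 in M2 with normexp. The genotype difference in the M2 response without single arrays ranged from −0.062 to 0.35 for *Fcgr1*, −0.049 to 0.18 for *Fcgr2b*, −0.057 to 0.53 for *Fcgr4* and −0.072 to 0.074 for *Fcer1g*, which was −0.047 with quantile normalization and −0.0094 with the authors' table.

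With 2 cultures, 1 mouse of each genotype in each, the spread within a group rests on 2 arrays, and the tests borrow it across groups and genes. Each stimulus lies on its own slide.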
